A study of Mus musculus with 14 samples.

Results

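The abundant long noncoding RNAs of regulatory T cells (Tregs) were taken as the annotated lincRNA, lncRNA, antisense and processed-transcript genes on chromosomes 1 to 19 whose mean over 14 libraries was 200 normalized counts or more, with Dleu2 left out. Of 48363 genes with values, 3925 carried one of these biotypes on these chromosomes, and 107 of them were members: 60 lincRNAs and 47 processed transcripts. No row carried the biotype lncRNA or antisense, because the table writes antisense genes under another name, so antisense RNAs entered only where they were typed as one of the other classes. The members were selected on their mean level over all libraries. Their abundance is therefore a description. Differences between groups were not themselves used to choose members, but a member near the threshold can pass it through the groups where it is high. The lowest members inside the threshold were 5830444B04Rik (202.05) and Lockd (200.48), and the candidates just outside it were Gm32633 (199.95) and Trmt61b (195.14).

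The study deleted the miR-15/16 family in Tregs and compared their RNA with that of control Tregs and with that of control Tregs divided by surface CD25, the IL-2 receptor alpha chain. The 4 groups were Tregs in which Cre from the Foxp3 locus deletes both loxP-flanked clusters, miR-15a/16-1 as well as miR-15b/16-2 (genotype miR-15/16 fl/fl with Foxp3-Cre; cKO, n = 5); CD25lo Tregs (n = 2) and CD25hi Tregs (n = 3) of control mice; and ungated control Tregs (genotype miR-15/16 wt/wt with Foxp3-Cre; WT, n = 4). All were FOXP3-YFP+ cells sorted from untreated mice, from pooled spleen and lymph nodes, and the controls carried the same Cre-YFP allele. The age of these mice and the number of mice behind each library were not stated per sample, so p-values measure the spread between libraries.

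Long noncoding RNAs are transcribed and usually spliced like messenger RNAs but are annotated as not coding for a protein. The class used here is that of the annotation, and whether a member is translated was not tested. Some act in the nucleus as scaffolds of nuclear bodies, such as Malat1 in nuclear speckles and Neat1 in paraspeckles. Others are mainly carriers: the introns of small nucleolar RNA (snoRNA) host genes release snoRNAs that guide modification of ribosomal RNA, and the spliced remainder is often degraded by nonsense-mediated decay once it is translated. Primary transcripts of microRNAs likewise leave a noncoding remainder after the hairpins have been cut out. In bulk RNA, fewer cells with a transcript and less transcript per cell cannot be told apart.

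MicroRNAs act through bases 2 to 8, the seed, which pair with complementary bases in target RNA. The RNAs missing in cKO Tregs share 1 seed, shown here in capitals (RefSeq, GRCm38) because it defines the matches searched in the members.
miR-15a-5p: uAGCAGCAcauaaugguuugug
miR-15b-5p: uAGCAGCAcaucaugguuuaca
miR-16-5p: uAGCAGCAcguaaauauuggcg
Exact complements of the seed (TGCTGCT, transcript strand) lay in the longest annotated transcript of 37 of 107 members. The share was largest in the longest transcripts, among members and among other long noncoding genes: for transcripts of 2000 to 4000 bases it was 23.1% of 39 members and 33.6% of 363 others, and for 4000 bases or more it was 69.2% of 26 members and 55.7% of 79 others. For 1000 to 2000 bases it was 28.6% of 28 members and 21.9% of 351 others, and for shorter transcripts 14.3% of 14 members and 11.8% of 440 others. Of the abundant nuclear RNAs, Malat1 held 1 match at chr19:5797636-5797642 and Neat1 held 4, at chr19:5842932-5842938, chr19:5837445-5837451, chr19:5830783-5830789 and chr19:5830000-5830006, all on the minus strand and shown in this order with the match in capitals.
Malat1: actgttccaatcTGCTGCTattagaatgca
Neat1 a: taagaattccaaTGCTGCTatctaaaggaa
Neat1 b: atggaatttatcTGCTGCTgtgtacagagc
Neat1 c: tgatgcaaacaaTGCTGCTatgaacacgtg
Neat1 d: cttcaggttccaTGCTGCTgcgtccacaga
Among members, Tmem250-ps held the most matches, with 7. A match is a description of the sequence and was not tested as a binding site.

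Library depth was even, at 30055573 to 35226685 recovered reads, but several properties of the libraries moved with the groups or against them. Immediate early and stress genes (24 genes, mean log2 level) stood at 12.49 to 13.78 in cKO, 11.82 to 12.28 in CD25lo, 11.77 to 11.94 in CD25hi and 13.58 to 13.83 in WT 1 to 3, but 11.96 in WT 4, so WT 4 stood with the CD25-sorted libraries. Xist and Ddx3y placed all 5 cKO libraries and WT 3 as female, and WT 1, 2 and 4 and all CD25-sorted libraries as male. The mean log2 level of the myeloid markers was 4 to 6.28 in cKO, 3.94 to 4.87 in CD25lo, 3.11 to 4.82 in CD25hi and 4.50 to 6.85 in WT, and of the 10 that passed the filter on low values none differed between cKO and WT while Cd68 and Cybb fell in CD25-sorted against WT Tregs. S100a8 was at 0 in cKO and sorted libraries and Cd14 at 0 in sorted libraries. B cell markers ranged over 4.66 to 5.63 in cKO, 3.76 to 4.23 in sorted and 3.90 to 5.58 in WT libraries, with Ighm higher in cKO (1 of 6 tested); of 6 CD8 T and NK cell markers and 2 erythroid markers tested none passed in any comparison. The Treg markers were high throughout (mean log2 level 14.07 to 14.65), and Il2ra, which encodes CD25, fell by 0.75 on the log2 scale in cKO against WT and by 1.43 in CD25lo against CD25hi Tregs. Of the 8 Treg markers, Ikzf2 rose in cKO, Foxp3, Ikzf2 and Tnfrsf18 fell with Il2ra in CD25lo, and Ctla4, Ikzf2 and Tnfrsf18 fell in sorted against WT Tregs.

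The level of a long RNA has to be read per length. Per kilobase of annotated exon, the 107 members spanned 31.9 to 82050 normalized counts with a median of 194, and their exonic length spanned 269 to 20771 bases with a median of 3620. This length counts every base in any annotated exon, so it depends on the isoforms annotated. It was 3760 bases over 25 transcripts for Gas5 and 462 bases over 1 transcript for 2410006H16Rik. Ranks per kb depend on this. By total counts, 3 genes held most of the signal: Gm42418 took 43.7% of all normalized counts of members, Malat1 13.1% and Gm26917 7.03%, and the other 104 members shared 36.2%. The members together took 0.941% to 1.18% of the counts of a cKO library, 0.758% to 1.51% in CD25lo, 0.968% to 1.54% in CD25hi and 0.76% to 1.25% in WT.

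**Figure D1:**
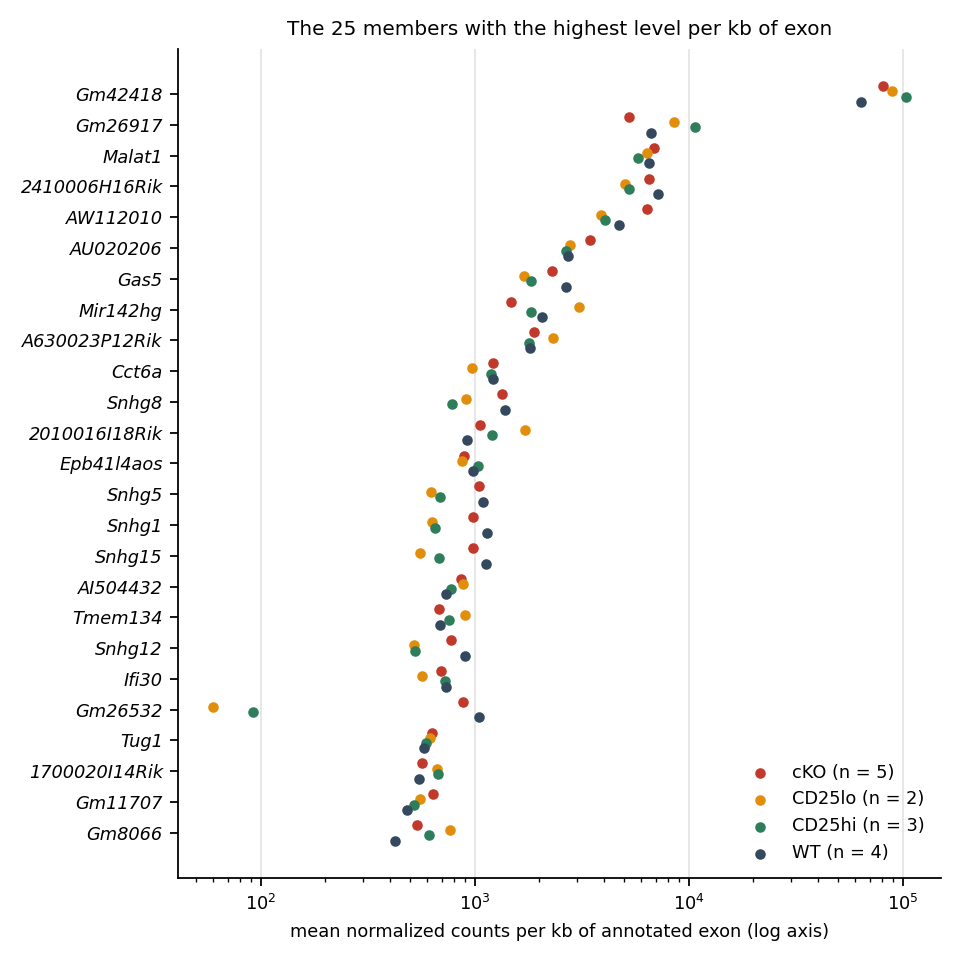
Mean normalized counts per kb of annotated exon (log axis) of the 25 members with the highest level, 1 dot per group mean (cKO n = 5, CD25lo n = 2, CD25hi n = 3, WT n = 4; no error shown). Gm42418 stands far to the right of all others, and Gm26532 is the one member in the plot whose CD25lo and CD25hi dots lie far left of cKO and WT.

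The first 2 places per kb belonged to Gm42418 (chr17:39846958-39848788, plus strand, 82050 normalized counts per kb) and Gm26917 (chr17:39843013-39846341, plus strand, 7266 per kb), neighbouring single-exon gene models. In mouse data, these models are known to collect reads of ribosomal RNA. Gm42418 had 102369.5, 155283.6, 164105.9, 150140.5 and 169794.6 normalized counts in cKO 1 to 5, 260434.3 and 64528.1 in CD25lo, 270134.4, 119652.2 and 179803.0 in CD25hi, and 144545.9, 71084.5, 187479.7 and 63864.3 in WT. Gm26917 had 11676.7, 21260.3, 17026.3, 17087.4 and 20176.1 in cKO, 38771.8 and 17876.0 in CD25lo, 46295.5, 33118.0 and 27036.0 in CD25hi, and 23168.1, 20132.6, 26485.5 and 18552.3 in WT. Libraries of 1 group differed several-fold for Gm42418 and the groups overlapped in every comparison, and neither gene passed the test anywhere (adjusted p of 0.264 or more).

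Malat1 (chr19:5795690-5802672, minus strand, 6471 per kb) was the most abundant member apart from these. It had 41754.4, 58818.2, 52297.5, 49069.7 and 39163.9 normalized counts in cKO, 56300.6 and 32328.6 in CD25lo, 47787.2, 40704.4 and 33242.7 in CD25hi, and 43929.8, 38442.7, 64384.1 and 34358.6 in WT. The ranges of all groups overlapped, with a log2 fold change of 0.12 ± 0.17 (SE) in cKO against WT, adjusted p = 0.81 (limma). 2410006H16Rik, also called Snhg29 and a host of Snord49 and Snord65 snoRNAs, came next with 6237 per kb from only 462 exonic bases. It had 2643.2, 2545.5, 2668.8, 3674.7 and 3537.9 normalized counts in cKO, 2307.7 and 2328.4 in CD25lo, 2576.2, 2364.1 and 2369.8 in CD25hi, and 3788.1, 3611.3, 3411.6 and 2513.8 in WT. The values of cKO 1 to 3 and WT 4 were close to the sorted libraries, whereas those of cKO 4 and 5 and WT 1 to 3 were above them. The fifth place per kb was held by AW112010 (5052 per kb), an RNA induced by interferon and bacterial products in mouse immune cells, described below.

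Of the members in the list of nuclear and regulatory RNAs, those other than AW112010 passed the test in no comparison. Tug1, a widely expressed nuclear RNA transcribed head to head with Morc2a, averaged 6141 ± 301 normalized counts in cKO and 5641 ± 334 in WT (SD, n = 5 and 4). 1700020I14Rik (Cyrano), which in mouse promotes destruction of miR-7, averaged 5577 ± 391 in the 5 sorted libraries and 4573 ± 732 in WT, with a log2 difference of 0.29 ± 0.09 and an adjusted p of 0.107. Neat1 averaged 4226 ± 1186 in cKO and 4084 ± 750 in WT, and 5770 ± 1620 in CD25lo and 4661 ± 1035 in CD25hi (SD). None of these passed the test, and the groups overlapped. 1810026B05Rik (Chaserr), which restrains its neighbour Chd2, averaged 4933 ± 615 in cKO and 4315 ± 1218 in WT, and 2900097C17Rik (Norad), which binds PUMILIO proteins, 798 ± 48.6 in cKO and 790 ± 72.6 in WT. Pvt1, which lies next to Myc, averaged 291 ± 24.6 in cKO and 297 ± 77.2 in WT, and Lncpint, a target of p53, 492 ± 133 in cKO and 471 ± 99.0 in WT. Lockd, transcribed from the Cdkn1b locus, had 202.4, 154.4, 285.2, 255.1 and 327.4 in cKO, 50 and 194.8 in CD25lo, 139.8, 62.1 and 170.1 in CD25hi, and 292.6, 316.7, 140.3 and 215.8 in WT. Sorted and WT libraries overlapped for Lockd, and its log2 difference of -1.11 ± 0.43 had an adjusted p of 0.207. Lockd was a member through its level in cKO and WT, so a low sorted level was partly set by how it was chosen. 5830444B04Rik, of unknown function, had 326.4, 352.5, 433.1, 105.0 and 321.2 in cKO, 179.1 and 189.7 in CD25lo, 55.4, 61.1 and 108.2 in CD25hi, and 133.3, 186.7, 111.8 and 265.2 in WT. The other 4 cKO libraries lay above all WT libraries, but cKO 4 lay below them. 5830444B04Rik was a member through its level in cKO, so a high level there was partly set by how it was chosen.

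Comparing cKO with WT asked what the loss of miR-15/16 did in ungated Tregs. Of the 107 members, Mirt1 and AW112010 rose and AI506816 fell (limma on log2 of the normalized count + 1, Benjamini-Hochberg over 16241 genes, adjusted p under 0.05, here a call). Among all genes tested 2.04% were called higher and 1.48% lower, and among the 9380 genes with a mean of 200 or more 3.2% were called higher and 2.51% lower. The members' shares, 2 and 1 of 107, were near or below these. Their median log2 fold change was 0.04, beside 0.05 over all genes tested, and 99 of 107 lay within 0.5 of 0. The standard error of a member was larger, with a median of 0.22 beside 0.12 over genes with a mean of 200 or more. Levels above that floor were not matched.

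Mirt1 (chr19:53441212-53464796, minus strand), named after its induction in mouse heart after infarction, was the most clearly changed. It had 1928.9, 1982.8, 2129.6, 1624.3 and 1357.8 normalized counts in cKO, against 819.5, 1252.6, 1188.4 and 1038.0 in WT. Every cKO library lay above every WT library. The log2 fold change was 0.75 ± 0.16 (SE, n = 5 and 4), adjusted p = 0.0107. Mirt1 was counted in the list of miRNA hosts, but it holds no annotated miRNA, and its longest transcript holds no match to the miR-15/16 seed.

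AW112010 (chr19:11047617-11050566, minus strand) had 5079.2, 3994.4, 5507.1, 5138.0 and 5934.5 normalized counts in cKO, against 4309.8, 4036.1, 3781.6 and 3106.8 in WT. Only cKO 2 fell within the WT range. The log2 fold change was 0.43 ± 0.11, adjusted p = 0.0294. It missed the threshold when any of 6 single libraries was left out (cKO 1, 3, 4 or 5, or WT 3 or 4, adjusted p of 0.0575 to 0.0866) and in a fit of the cKO and WT libraries alone (0.0572).

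AI506816 (chr5:23698296-23712667, minus strand), a processed transcript of unknown function whose span holds Mir3096 (typed as a snoRNA in the annotation), had 1295.1, 806.3, 1204.0, 694.1 and 814.9 normalized counts in cKO, against 1418.2, 1464.4, 1380.5 and 1702.9 in WT. The groups did not overlap, although cKO 1 and 3 came close to WT. It fell by 0.67 on the log2 scale (SE 0.15, adjusted p = 0.0181). With library sex added to the model, none of the 3 calls remained (adjusted p of 0.726 for Mirt1, 0.687 for AW112010 and 0.747 for AI506816), with log2 fold changes of 0.58, 0.43 and -0.56; 22 genes of the whole table were then called, beside 572 without the term. All cKO libraries are female and WT 3 is the only female WT library, so this fit in effect sets cKO against WT 3 alone. Genotype and sex are nearly confounded here, and their parts cannot be told apart.

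**Figure D2:**
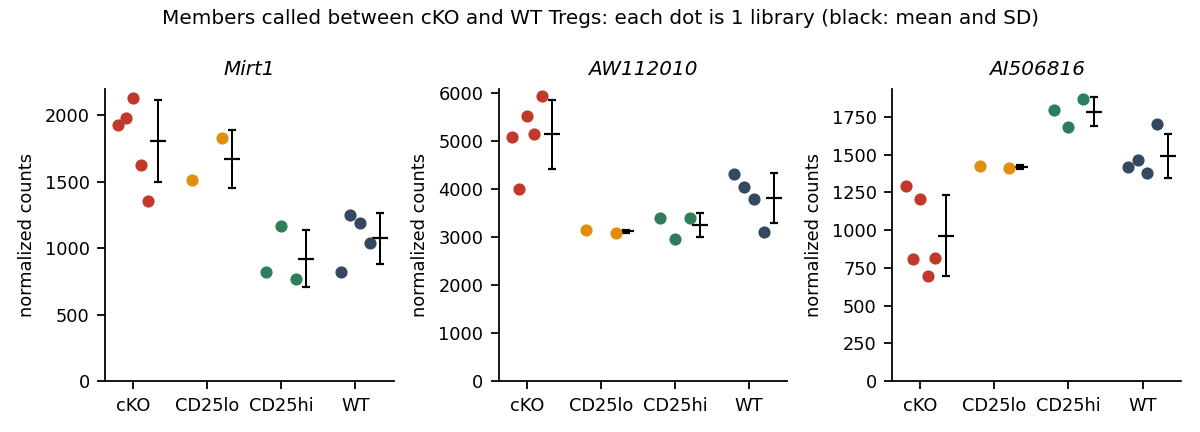
Normalized counts of Mirt1, AW112010 and AI506816 in each library (1 dot each; axes start at 0) with the group mean and SD in black, for cKO, CD25lo, CD25hi and WT Tregs. The cKO dots of Mirt1 (1357.8 to 2129.6) lie above all WT dots, those of AI506816 (694.1 to 1295.1) lie below all WT dots, and the CD25lo dots of Mirt1 (1515.7 and 1826.8) lie above the CD25hi dots.

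Without WT 4, which stood apart, Mirt1 kept its call (log2 fold change 0.74, adjusted p = 0.0209) and so did AI506816 (-0.60, 0.0471), while AW112010 did not (0.33, 0.0826). AI504432, Gas5, Snhg1 and Snhg12 were called as well. This gave 2 members higher and 4 lower, among 575 genes called of 16127. Beside the 3 calls, groups did not overlap for Gm37494, Tmem250-ps and 3110056K07Rik, all above WT in cKO, and Gm43305, below it, which makes 4 above and 2 below when Mirt1 and AI506816 are counted. Over all genes tested 4.92% lay above and 3.62% below without overlap, and among genes with a mean of 200 or more 6.45% and 5.54%, larger shares than among the members. Tmem250-ps, the member with the most seed matches, is named here after its values were seen; its log2 fold change was 0.37 with an adjusted p of 0.147. Members with a seed match had a median log2 fold change of 0.06 (37 members, 0 called higher and 0 lower) and those without one 0.03 (70 members, 2 higher and 1 lower).

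The comparison of CD25lo with CD25hi Tregs asked which members followed CD25 in control cells. Mirt1 was the one member that passed the test: it had 1515.7 and 1826.8 normalized counts in CD25lo, against 824.7, 1167.3 and 769.3 in CD25hi Tregs. The groups did not overlap, and the log2 fold change was 0.88 ± 0.21 (SE, n = 2 and 3), adjusted p = 0.0439. Among all genes tested 0.61% were called higher and 1.01% lower, and among genes with a mean of 200 or more 0.949% and 1.58%; of the members 1 was called higher and 0 lower. At an unadjusted p under 0.05 there were 11 members higher and 3 lower, 13.1% of members beside 13.5% of all genes tested and 17.6% of genes with that abundance, and DESeq2 called Mirt1 alone while edgeR called 0. The Mirt1 call was lost when any of 9 single libraries was left out (cKO 1, 2, 3 or 4, WT 3, CD25lo 1 or 2, CD25hi 1 or 3), the highest adjusted p being 0.321 without CD25lo 2. It was also lost in edgeR (adjusted p = 0.0501), limma-voom (0.0527), with no filter on low values (0.0851), with library sex in the model (0.057) and in a fit of the CD25lo and CD25hi libraries alone (0.0709), where 2010016I18Rik was called in its place.

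Members had a median log2 fold change of 0.07 in CD25lo against CD25hi, beside 0.00 over all genes tested, and ranged over -1.16 to 1.39. With 2 libraries against 3, 18 members lay above CD25hi in both CD25lo libraries and 11 lay below it. Over all genes tested 12.9% lay above and 11.6% below in this way, and among genes with a mean of 200 or more 16.5% and 15.5%. The 18 members above, of 107, exceeded the share of all genes tested and were near that of genes with a mean of 200 or more. The 11 below fell short of both shares. Mir142hg, the host of the blood-cell miRNA miR-142, averaged 827 ± 181 in CD25lo and 491 ± 76.2 in CD25hi (SD), and 398 ± 68.9 in cKO and 555 ± 208 in WT. Its adjusted p was 0.278 and 0.374, larger than the threshold in both comparisons. Mir17hg, the host of the miR-17 to miR-92 cluster, averaged 288 ± 7.71 in CD25lo and 269 ± 89.5 in CD25hi, and 302 ± 60.6 in cKO and 328 ± 140 in WT.

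**Figure D3:**
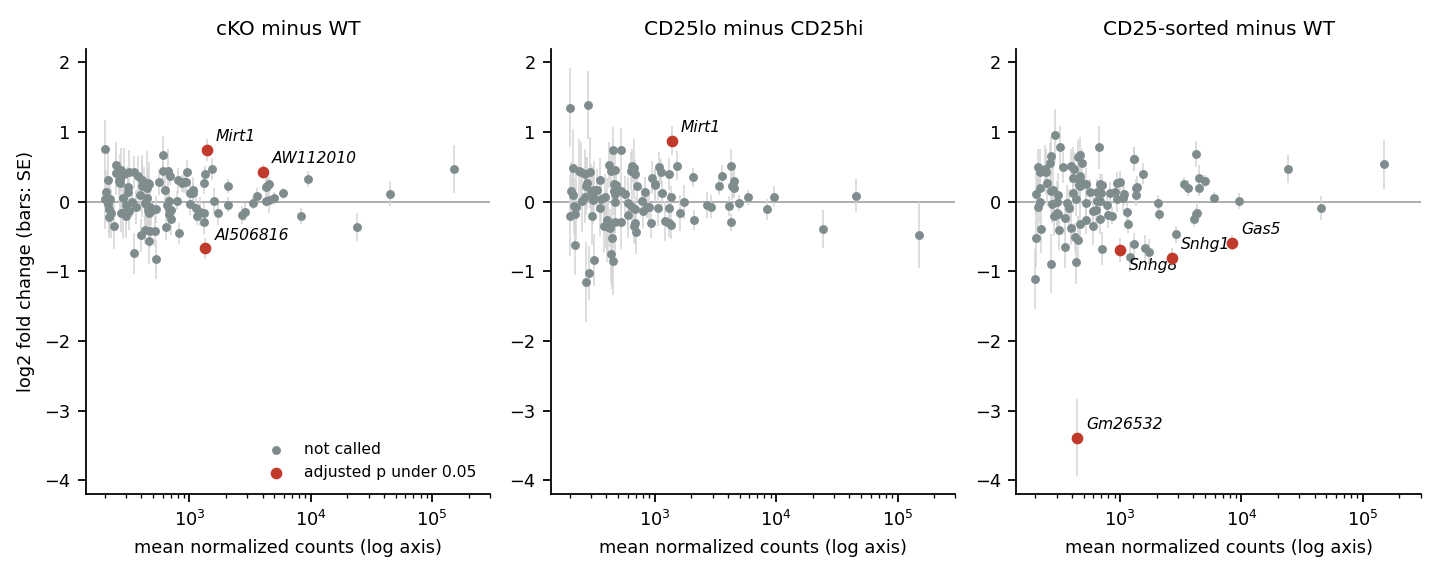
Log2 fold change with SE (vertical axis) of the 107 members against their mean normalized counts (log axis) in the 3 comparisons, with members of an adjusted p under 0.05 in red and named. Most members lie close to 0, and Gm26532 at -3.38 in CD25-sorted against WT Tregs lies farthest from it.

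Setting the CD25-sorted control libraries against ungated WT Tregs asked what the gated cells shared against ungated cells of the same genotype. Gating and any difference in handling between these sorts cannot be told apart in this comparison. Gas5, Snhg1, Snhg8 and Gm26532 fell and none rose. For each of the 4, neither CD25lo nor CD25hi libraries reached the level of WT 1 to 3. With library sex in the model none of the 4 was called (adjusted p of 0.0766, 0.0622, 0.129 and 0.0622). Their log2 fold changes were then -0.58, -0.75, -0.66 and -3.09, and 6 genes of the whole table were called. WT 3 is the only female control library, so these fold changes are the same as in a fit without WT 3. Among all genes tested 0.308% were called higher and 1.2% lower, and among genes with a mean of 200 or more 0.501% and 1.79%, beside 0 and 4 of 107 members. At an unadjusted p under 0.05 there were 16 members higher and 17 lower, 30.8% of members beside 16.0% of all genes tested and 20.4% of genes with that abundance. By DESeq2 2 members were higher and 10 lower, among 805 genes called of 16241. By edgeR with TMM 0 were higher and 9 lower, among 341 genes called of 16241.

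Gas5 (chr1:161034422-161038539, plus strand), a snoRNA host named for its accumulation in growth-arrested mouse cells, had 6622.2 and 6124.2 normalized counts in CD25lo and 7079.5, 6368.1 and 7147.0 in CD25hi, against 10722.9, 11881.3, 10117.9 and 7501.3 in WT. All sorted libraries lay below all WT libraries, with WT 4 closest to them. It fell by 0.59 on the log2 scale (SE 0.11, n = 5 and 4, adjusted p = 0.0205). Snhg1 (chr19:8723475-8726443, plus strand), which carries 8 annotated snoRNAs, had 1852.2 and 1876.2 in CD25lo and 1944.9, 2009.7 and 1833.4 in CD25hi, against 3897.4, 3740.2, 3703.3 and 2235.3 in WT. The groups again did not overlap, and it fell by 0.81 (SE 0.14, adjusted p = 0.0152).

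Snhg8 (chr3:123507552-123508404, minus strand), the host of Snora24, had 718.3 and 832.6 in CD25lo and 609.8, 544.9 and 855.3 in CD25hi, against 1525.4, 1112.8, 1245.3 and 839.6 in WT. WT 4 lay within the sorted range. It fell by 0.69 (SE 0.17) at an adjusted p of 0.0498, just under the threshold, and the call was lost in 12 of 14 fits that left out 1 library (adjusted p up to 0.17) and in a fit of the sorted and WT libraries alone (0.121). The calls of Gas5, Snhg1 and Gm26532 were lost without WT 1, WT 2, WT 3 or CD25lo 2, at adjusted p up to 0.095, 0.0674 and 0.0674. In cKO Tregs the same RNAs had 7880.1 to 10438.0 (Gas5), 2465.4 to 3359.7 (Snhg1) and 977.5 to 1372.5 (Snhg8) normalized counts, and none was called against WT. This rested on WT 4: without it Gas5 and Snhg1 were called lower in cKO and Snhg8 was not called. For Snhg1 every cKO library lay below WT 1 to 3 and above WT 4.

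Gm26532 (chr8:84208920-84209609, plus strand) averaged under 200 in both sorted groups and was a member through its level in cKO and WT, so a low level in sorted libraries was partly set by how it was chosen. It had 48.2 and 34.3 normalized counts in CD25lo and 97.6, 35.7 and 58.0 in CD25hi, against 937.1, 894.4, 971.8 and 89.4 in WT, while cKO had 518.4, 499.4, 510.0, 686.1 and 818.1. WT 4 lay within the range of the sorted libraries and 10-fold or more below WT 1 to 3, so the groups overlapped by this 1 library. It fell by 3.38 (SE 0.55, adjusted p = 0.0134), with no call between cKO and WT (log2 fold change 0.19, adjusted p = 0.914). All cKO libraries lay below WT 1 to 3 and above WT 4, so the sign of the fold change between cKO and WT rests on WT 4. The gene model begins inside the last 2 bases of the Mir24-2 hairpin on the same strand, 161 bases after the Mir27a hairpin and 327 bases after Mir23a, so it covers the stretch that follows this miRNA cluster. The mature miRNAs of the cluster, which were not measured here, are shown with their seeds in capitals; the 3 seeds differ from each other and from that of miR-15/16.
miR-23a-3p: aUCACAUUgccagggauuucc
miR-27a-3p: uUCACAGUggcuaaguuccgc
miR-24-3p: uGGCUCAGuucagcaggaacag

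**Figure D4:**
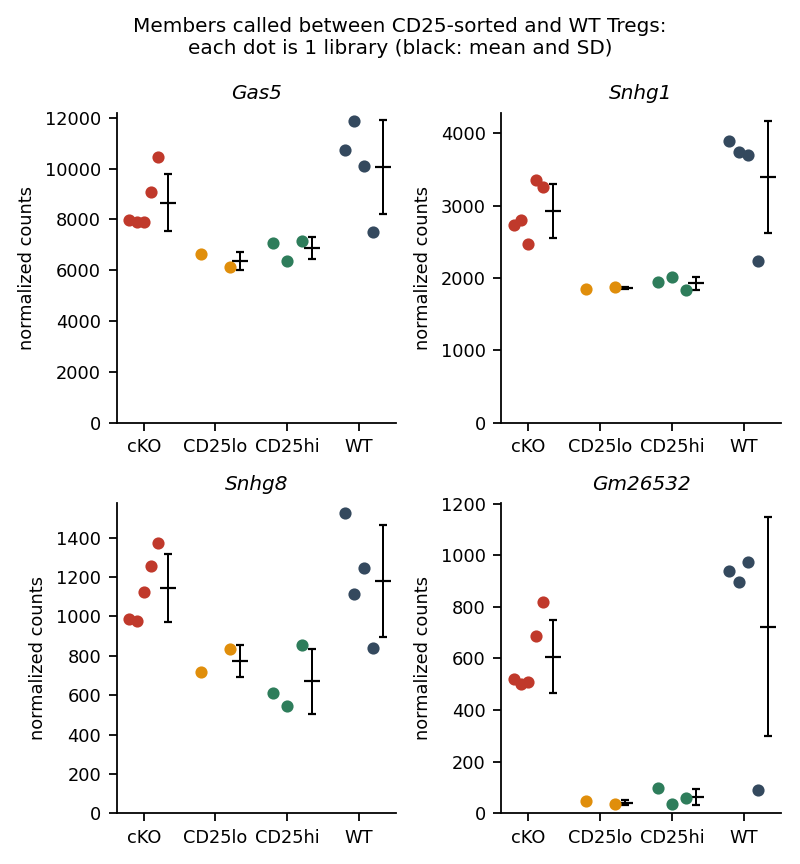
Normalized counts of Gas5, Snhg1, Snhg8 and Gm26532 in each library (1 dot each; axes start at 0) with the group mean and SD in black, for cKO, CD25lo, CD25hi and WT Tregs. In each panel the lowest WT dot is WT 4, which for Gm26532 (89.4) lies among the sorted libraries.

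The snoRNA hosts of the list were described as a group. Of 13 hosts among the members, 9 had an unadjusted p under 0.05 with lower values in CD25-sorted than in WT Tregs and 2 with higher values. Of the other 94 members 8 had an unadjusted p under 0.05 with lower values. Of the hosts 3 were called lower, beside 1.2% of all genes tested and 1.79% of genes with a mean of 200 or more. The hosts' median log2 fold change was -0.59, beside 0.10 for the other 94 members. Snhg12 averaged 1253 ± 115 in sorted and 2150 ± 653 in WT libraries, Snhg5 1149 ± 140 and 1891 ± 652, and Snhg15 860 ± 165 and 1526 ± 509 (SD, n = 5 and 4). Zfas1, antisense to Znfx1, averaged 1047 ± 231 and 1537 ± 146, and 1110038B12Rik, beside the heat-shock gene Hspa1b, 386 ± 103 and 526 ± 106. None of these 5 passed the threshold; Snhg12 and Zfas1, at an adjusted p of 0.0502 each, were nearest to it.

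Other hosts had the opposite order or none. Snhg17 averaged 1776 ± 152 in sorted and 1161 ± 201 in WT libraries, with no overlap and an adjusted p of 0.0816, and Snhg20 403 ± 165 and 227 ± 58.1. Snhg6 averaged 408 ± 138 in sorted and 377 ± 183 in WT libraries, and Epb41l4aos 417 ± 56.8 and 423 ± 244. Between cKO and WT the median of the 13 hosts was -0.15 with 0 called, although Gas5, Snhg1 and Snhg12 were called lower without WT 4. Between CD25lo and CD25hi the median was -0.11 with 0 called.

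**Figure D5:**
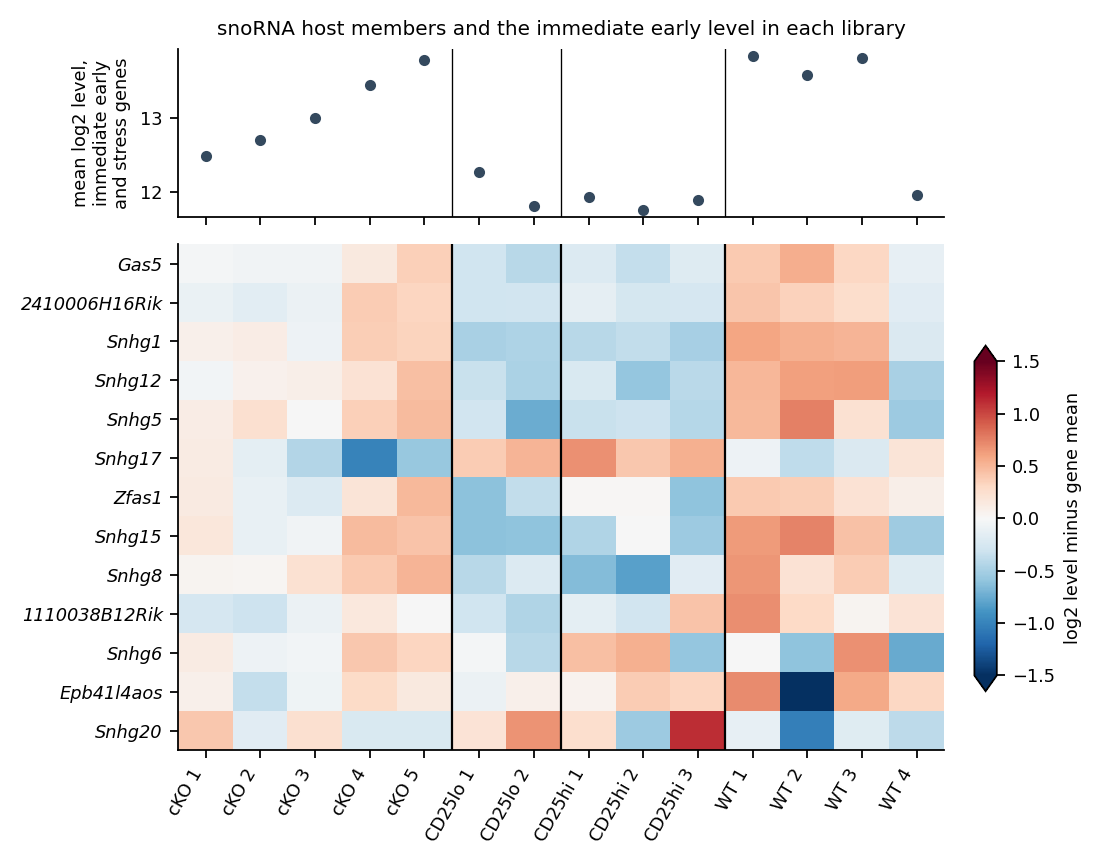
Mean log2 level over the 24 immediate early and stress genes in each library (upper panel) above the log2 level of the 13 snoRNA hosts, each minus its own mean over the 14 libraries (lower panel, red above and blue below that mean; colours end at 1.5). Gas5, 2410006H16Rik, Snhg1 and Snhg12 are red in cKO 4 and 5 and in WT 1 to 3, where the upper panel is high, and blue in the sorted libraries and WT 4, where it is low.

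The hosts and the immediate early genes were high in largely the same libraries. The hosts' mean log2 level was 10.31 and 10.38 in cKO 4 and 5 and 10.55, 10.14 and 10.44 in WT 1 to 3, the libraries with an immediate early level of 13.44 or more. It was 10.06 to 10.21 in cKO 1 to 3, so that WT 2 lay within their range, 9.90 in both CD25lo libraries, 9.97 to 10.06 in CD25hi and 9.94 in WT 4. Of the 24 immediate early and stress genes, 14 were called lower in sorted against WT Tregs, among them Fos, which fell by 1.03, and Nr4a2, which fell by 2.75. With the immediate early level as a term, none of the 4 members was called (adjusted p of 0.484 for Gm26532, 0.525 for Snhg1, 0.67 for Gas5 and 0.85 for Snhg8) and 2 genes of the whole table were. Without WT 4 the log2 fold changes of Gas5, Snhg1, Snhg8 and Gm26532 were -0.72, -0.995, -0.85 and -4.23, and 6 members were called higher and 10 lower, among 986 genes of the whole table, beside 245 with WT 4. Gating and the immediate early level are nearly confounded among control libraries, where WT 4 is the one ungated library with a low level.

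Many snoRNA hosts belong to the class of RNAs that begin with a C followed by a run of pyrimidines, which ties their translation to growth signals. The 30 bases around annotated starts (RefSeq, GRCm38, the start being the 16th base) are shown for the hosts with a start in the table, so that those lower and those higher in sorted libraries can be compared. Capitals mark the longest run of C and T that begins with C, counted only over the bases within 10 of the start. A run that crosses the edge of this window, as in Snhg5, is counted only up to it. Where a gene has several starts, the one with the longest run is given.
Gas5: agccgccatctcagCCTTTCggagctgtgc
2410006H16Rik: tcacgcgccgtCTTTCTCTgcggccatcat
Snhg1: gttgttcttgtcggCCTCatttttccttgt
Snhg12: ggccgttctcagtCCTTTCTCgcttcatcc
1110038B12Rik: gggcggcacacgggtCTCTTTgtgcacccg
Snhg8: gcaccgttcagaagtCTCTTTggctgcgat
Snhg15: cgctgctgtgaccgtaaCTTTaagcacacg
Snhg5: gagctgcggtgaaccgggCTCgttctttta
Zfas1: ttgactgcgCCCCgggcggccgcaggtctc
Snhg17: tcgtgaagaccacagtttCCTgtcgcgtgg
Snhg20: cttcagttCCggccggaagtgcatttgcag
A run of 6 or more on the transcript strand lay within 10 bases of 6 of 14 annotated starts of hosts (42.9%, 5 of 11 genes with a start in the table, 1110038B12Rik having 2 such starts), 16.2% of 68 starts of other members and 15.8% of all 32851 starts. Snhg17 and Snhg20, whose values were higher in sorted libraries, had runs of 3 and 2 bases, but Snhg5, Snhg15 and Zfas1 had short runs in this window as well. Shares among so few starts are a description, and no match says only that these letters are not in this window.

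The coding partners of these RNAs were counted from the lists. Of 15 snoRNP core proteins tested, Fbl and Nop56 fell in cKO against WT and Nop56 fell in sorted against WT Tregs, and the list's median log2 fold change was -0.21 in cKO, -0.28 in CD25lo and 0.03 in sorted Tregs. Of 18 genes of nonsense-mediated decay and 18 paraspeckle proteins, 0 were called in any comparison, with medians of -0.08 to 0.02 and -0.02 to 0.01. Of 17 nuclear speckle and splicing factors bound by Malat1, Clk1 and Srsf5 fell in sorted against WT Tregs and none changed in the other comparisons. Of 19 genes of the nuclear RNA exosome, Exosc5 rose in sorted against WT Tregs. In the list of nuclear and regulatory RNAs, 19 genes were tested and 2 rose in cKO, AW112010 and Peg13, an imprinted gene outside the members; of 17 snoRNA hosts tested with or without membership, 0 rose and 4 fell in sorted against WT Tregs, the fourth being Snhg9. In the list of miRNA hosts, 9 were tested, of which Mirt1 was called higher in cKO and in CD25lo and Gm26532 lower in sorted Tregs.

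Many members lay beside coding genes. Of 107, 31 overlapped a protein-coding gene that passed the filter, 23 of them on the opposite strand, 21 started within 1000 bases of an opposite-strand coding start, and 34 had no coding gene within 10000 bases. Where the strand setting of the counting is not known, reads of overlapping opposite-strand genes cannot be told apart. The nearest coding gene was called in 8 of 107 pairs in cKO, 3 in CD25lo and 1 in sorted Tregs, beside 572, 263 and 245 of all 16241 genes tested. Whether neighbours were called more often than other genes was not tested. In 0 pairs were member and neighbour both called in the same comparison. Gas5 overlaps Zbtb37 on the opposite strand; in sorted against WT Tregs Gas5 fell by 0.59 while Zbtb37 had a log2 fold change of 0.44 (adjusted p = 0.095). Snhg1 starts 106 bases from Slc3a2, the CD98 heavy chain, which had -0.48 (adjusted p = 0.0913).

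Pvt1 lies beside Myc, the growth regulator. Myc fell by 0.54 in cKO against WT (adjusted p = 0.000758) and by 0.57 in CD25lo against CD25hi (adjusted p = 0.0116), where Pvt1 had log2 fold changes of 0.00 and 0.17 with adjusted p of 1.0 and 0.859. Kcna3, a potassium channel of T cells, rose by 0.47 in cKO (adjusted p = 0.0192), with 0.26 and an adjusted p of 0.215 for AI504432 beside it. Chd2 fell by 0.31 in cKO (adjusted p = 0.0265), and Chaserr, which overlaps it in the annotation, had 0.23 (adjusted p = 0.469). Dennd2d rose by 0.57 in CD25lo (adjusted p = 0.0142), and 2010016I18Rik, which overlaps it on the opposite strand, had 0.51 (adjusted p = 0.374). The neighbours of Mirt1 (Smndc1, 50639 bases away) and AI506816 (Srpk2, 13679 bases away) had log2 fold changes of 0.05 and 0.09 in cKO against WT, and neither was called. The difference in response between a member and its neighbour was not tested.

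Members varied more between libraries than coding genes above the same floor on the mean, but levels were not matched above a floor. Means of 1000 or more were reached by 35 of 107 members and by 5749 of 9109 coding genes. The median SD within groups on the log2 scale was 0.35 for the 107 members and 0.18 for 9109 protein-coding genes with a mean of 200 or more, and 0.25 for 35 members and 0.14 for 5749 coding genes with a mean of 1000 or more. Members with the names of coding genes, such as Cct6a, Tmem134, Trerf1, Zswim6 and Ifi30, are processed transcripts in the deposited annotation and were kept as the rule has them. Their reads may include those of coding isoforms. In GENCODE M21 the type of 8 members differs from the deposited one, and 6330403K07Rik and 9930104L06Rik are typed there as protein-coding.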

How the data were processed

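RNA of 14 sorted Treg samples was sequenced as single-end 50-base reads. Per the labels and methods, the authors aligned reads with STAR 2.7.2b to GRCm38 and processed counts with DESeq2 1.24.0; the read counter and its strand setting are not given in the sources used here. The deposited signal is a table of 55536 genes, 48363 with values, of counts divided by size factors (normalized counts); the authors' other columns (variance-stabilized log2 values, GC content in percent, and their fold changes and p-values) were deposited too and were not used, and genes without values were not analysed here. Recovered whole reads (within 0.055 normalized counts, 100% of values) gave the depth and the inputs of edgeR and DESeq2.

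The main test was limma 3.58.1 (R) with a mean-variance trend on log2(normalized count + 1), 4 group means over 14 libraries, genes with 10 or more normalized counts in 2 libraries, and Benjamini-Hochberg adjustment. A fold change on this scale understates that of low genes. edgeR 4.0.16, DESeq2 1.42.0, other pseudocounts and filters, covariates and left-out libraries were alternatives. Values per library are given for the 5 members with the highest level per kb, every member called in the cKO or CD25lo comparison, up to 6 called in sorted against WT, and those at the threshold; list members are given by group means. Members, lists and rules were chosen with earlier results of these data known. The fit was checked on simulated data. Exons, neighbours and transcripts came from GENCODE M21 (GRCm38), which holds all 107 members, 98 with the deposited coordinates; miRNAs and starts from RefSeq.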

Additional observations from a re-analysis of the deposited data

Results flagged for a closer look

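In 2 of 26 groups of 4 or 5 libraries, tested over the 13 members given by library, 1 library lay far from the others of its group. Snhg1 had 2235.3 normalized counts in WT 4, where the nearest WT library had 3703.3. Gm26532 had 89.4 normalized counts in WT 4, where the nearest WT library had 894.4. Both are the same library, which also had the lowest immediate early level of WT (11.96). Chance flags about 1 in 20 groups.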

How the results depend on the processing

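The fold changes of the called members kept their direction under the alternatives run; those of other named genes were not rerun. The counts of members called were 2 higher and 1 lower in cKO, 1 and 0 in CD25lo, and 0 and 4 in CD25-sorted Tregs. With edgeR they were 0 higher in CD25lo and 9 lower in sorted Tregs (TMM, 341 genes of the whole table called) or 8 (DESeq2 size factors, 333). With DESeq2 they were 5 higher in cKO (895 genes of the whole table called) and 2 higher and 10 lower in sorted Tregs (805). With limma-voom they were 0 higher in CD25lo and 2 lower in sorted Tregs, and with no filter on low values 1 higher in cKO, 0 higher in CD25lo and 2 lower in sorted Tregs. With a pseudocount of 5 or a filter at 50 normalized counts 6 were lower in sorted Tregs. With only the groups compared, 1 was higher in cKO and 2 in sorted Tregs. With library sex added to the model the counts were 0 in cKO, CD25lo and sorted Tregs. With the immediate early level as a term 3 were higher in CD25lo and 0 lower in sorted Tregs. Without cKO 4 and 5 and WT 1 to 3, an alternative chosen after seeing the data that leaves WT 4 as the lone WT library, 0 were lower in cKO, 2 higher in CD25lo and 0 lower in sorted Tregs. Leaving out 1 library at a time gave 1 to 3 higher and 1 to 4 lower in cKO, 0 to 1 higher and 0 to 1 lower in CD25lo, and 0 to 6 higher and 0 to 10 lower in sorted Tregs. The 0 lower in sorted Tregs came without WT 1, WT 2, WT 3 or CD25lo 2, and the 6 and 10 without WT 4; without a CD25lo library the other is assumed to vary like the other groups. With the replicate block, 1 was higher and 0 lower in cKO (adjusted p of 0.096 for AW112010 and 0.0844 for AI506816); same-numbered cKO and WT libraries had correlations of -0.409 to -0.081 in their deviations and CD25lo and CD25hi libraries 0.173 and -0.055, so the numbers were not taken to pair samples.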

Other observations

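The ratio of Gm42418 to Gm26917, the neighbouring models on chromosome 17, was 7.3 to 9.64 in cKO libraries. It was 6.72 and 3.61 in CD25lo, 5.84, 3.61 and 6.65 in CD25hi, and 6.24, 3.53, 7.08 and 3.44 in WT 1 to 4. WT 2, WT 4, CD25lo 2 and CD25hi 2 had the ratios of 3.44 to 3.61 and also the fewest genes with a read (13723 to 14525, against 15387 to 18200 in the other 10 libraries). The difference was seen in the values and was not tested.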
